A study of Mus musculus with 10 samples.

Results

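The Hox cluster genes were followed in 10 mouse lung samples, 5 WT lungs and 5 lung squamous cell carcinomas (SCC). A member was any gene whose symbol is Hox followed by the cluster letter a, b, c or d and a paralog number, and each was read from its brightest probe, the one with the highest mean over all 10 arrays. The values cover 38 such genes of the gene table, and a probe was paired with 35 of them: 10 in HoxA, 10 in HoxB, 6 in HoxC and 9 in HoxD. No probe was paired with Hoxc4, Hoxc6 or Hoxc11. Over the whole series, probes were paired with 19092 genes.

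WT mice carried floxed Lkb1 alleles without a Cre driver (Lkb1f/f), and RNA came from the whole lung. SCC mice had the genotype CCSPiCreLkb1f/f, and RNA came from whole lung tumours. In these mice the promoter of club cell secretory protein drives Cre recombinase, which removes Lkb1 from airway epithelial cells. Lkb1 (Stk11) is a kinase and tumour suppressor, and no probe was paired with it here. All mice were 13 months old, with the strain given in the labels as B6.129, and without special treatment. Whole lungs and whole tumours can hold stroma, vessels and immune cells besides the epithelium, so fewer cells of a type and less RNA per cell cannot be told apart. The labels give samples as replicates without saying that each came from a separate animal, and p-values then measure the spread between these samples.

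Hox genes encode homeodomain transcription factors that give cells their position along the body axis. They lie in 4 clusters, HoxA to HoxD, and a gene's paralog number follows its place within the cluster. Low numbers are used towards the head and high numbers towards the tail, and the factors bind DNA with TALE homeodomain partners of the Pbx, Meis and Pknox families. Polycomb proteins keep the clusters silent, trithorax proteins keep them active, and retinoic acid turns on the low-numbered genes in the embryo. Lung mesenchyme expresses mainly HoxA and HoxB genes of low and middle number, among them Hoxa5 and Hoxb5, which take part in lung branching.

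Because neighbouring genes of a cluster did not all move together, the DNA just before the start of 4 HoxA genes is shown. Of the 35 members with a probe, 21 had a promoter window in RefSeq (build GRCm38.p6), 5 of them among the genes lower in SCC, and each window was trimmed to the 250 bases before the start. Hoxa2, whose intensity was lower in SCC, lies at chr6:52164832-52165081 on the minus strand, and capitals mark TGATNNAT, a Hox and Pbx binding motif, and TGACAG, a Meis motif, on either strand. Both strands were searched, and the motifs did not overlap in this window.
Hoxa2: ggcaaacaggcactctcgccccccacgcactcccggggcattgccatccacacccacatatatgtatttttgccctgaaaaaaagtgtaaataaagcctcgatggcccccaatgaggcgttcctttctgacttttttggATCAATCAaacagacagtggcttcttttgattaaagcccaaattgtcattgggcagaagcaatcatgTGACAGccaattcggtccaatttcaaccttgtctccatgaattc
The first motif was found in 7.68% of all 32851 promoter windows of this length and the second in 15.9%. Among 23 Hox windows, 4 held the first motif and 2 the second. Of the 5 windows of members lower in SCC, 1 held each, and it was that of Hoxa2 in both cases. The other Hox window with the Meis motif was that of Hoxa3, whose brighter probe was not called. The other Hox windows with the first motif were those of Hoxb1, Hoxb8 and Hoxd11, which were not tested. The next 3 windows, of the neighbours Hoxa5, Hoxa6 and Hoxa7, are shown because Hoxa5 and Hoxa7 were lower in SCC while Hoxa6 between them was not. Capitals mark CG dinucleotides, the sites of DNA methylation. Hoxa5 lies at chr6:52204588-52204837 on the minus strand, Hoxa6 at chr6:52208673-52208922 on the minus strand and Hoxa7 at chr6:52218574-52218823 on the minus strand.
Hoxa5: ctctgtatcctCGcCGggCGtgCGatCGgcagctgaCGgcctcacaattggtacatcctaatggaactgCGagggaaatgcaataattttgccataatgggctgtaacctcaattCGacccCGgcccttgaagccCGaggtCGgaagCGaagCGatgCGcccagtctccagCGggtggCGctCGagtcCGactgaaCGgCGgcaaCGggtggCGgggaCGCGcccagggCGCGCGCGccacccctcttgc
Hoxa6: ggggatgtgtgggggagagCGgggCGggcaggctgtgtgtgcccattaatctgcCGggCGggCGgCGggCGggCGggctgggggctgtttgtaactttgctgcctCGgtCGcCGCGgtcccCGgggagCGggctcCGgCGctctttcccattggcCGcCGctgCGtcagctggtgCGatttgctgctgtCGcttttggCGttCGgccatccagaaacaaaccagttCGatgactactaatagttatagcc
Hoxa7: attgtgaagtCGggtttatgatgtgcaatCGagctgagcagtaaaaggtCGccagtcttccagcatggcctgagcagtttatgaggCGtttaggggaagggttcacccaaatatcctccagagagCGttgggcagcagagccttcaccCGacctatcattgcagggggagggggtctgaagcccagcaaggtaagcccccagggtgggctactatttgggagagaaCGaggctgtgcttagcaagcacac
The windows held 28 CG dinucleotides for Hoxa5, 24 for Hoxa6 and 7 for Hoxa7, against a median of 6 over all windows. Hoxa6 thus lay between both neighbours in its number of CG dinucleotides. DNA methylation was not measured in this series.

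Signals are given as quantile-normalized log2 intensity, the brightness of a probe after all arrays were brought to the same distribution, so that a difference of 1 is 2-fold. A probe was tested if it was well above background, a flag set by the scanner software, on at least 4 of 5 arrays of either group. A gene was called when limma's test gave an adjusted p below 0.05 and the groups differed at least 2-fold. By this rule 22.9% of the 30374 tested probes were called, 9.92% higher and 13.0% lower in SCC, and the median difference over tested probes was -0.09. There were 3 slides: slide 1 carried the first 4 WT arrays, slide 3 the last 2 SCC arrays, and slide 2 the fifth WT array together with SCC replicates 1, 2 and 3.

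A pair of SCC arrays stood apart from the others. On SCC replicate 5, 90.2% of probes were well above background, against 71.0% to 74.4% on the other 9 arrays, and the lowest signal so flagged was 2.14, against 3.81 to 4.32 elsewhere. Its mean correlation with the other SCC arrays over all probes was 0.927, against 0.950 to 0.969 for the rest. SCC replicate 2 was the SCC array nearest to the WT lungs in squamous, fibroblast and endothelial markers. The mean level of 8 squamous markers, such as Krt5 and Trp63, was 12.04 on this array and lay between 14.52 and 14.83 on the remaining SCC arrays and between 5.56 and 5.90 in WT. All 8 squamous markers were higher in SCC, where 9.92% of all tested probes were, and 3 of them, Krt6a, Dsg3 and Pkp1, were above background on no WT array and entered the test through SCC. Leaving out either array moved the fold of no tested Hox gene by more than 1.34 times and ended 1 call, that of Hoxb4 without SCC replicate 2.

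The genes read on every array all came from HoxA and HoxB. Of the 35 members, 13 were well above background on all 10 arrays: Hoxa2, Hoxa3, Hoxa4, Hoxa5, Hoxa6, Hoxa7, Hoxa9, Hoxb2, Hoxb3, Hoxb4, Hoxb5, Hoxb6 and Hoxb7. Hoxb1 and Hoxc13 were above background on no array. Between 16 and 18 members were above background on each WT array and between 14 and 16 on SCC replicates 1 to 4. SCC replicate 5 had 33, of which 11 were above background on no other array. Of all probes, 90.2% were above background on that array, against 71.0% to 74.4% on the others.

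**Figure D1:**
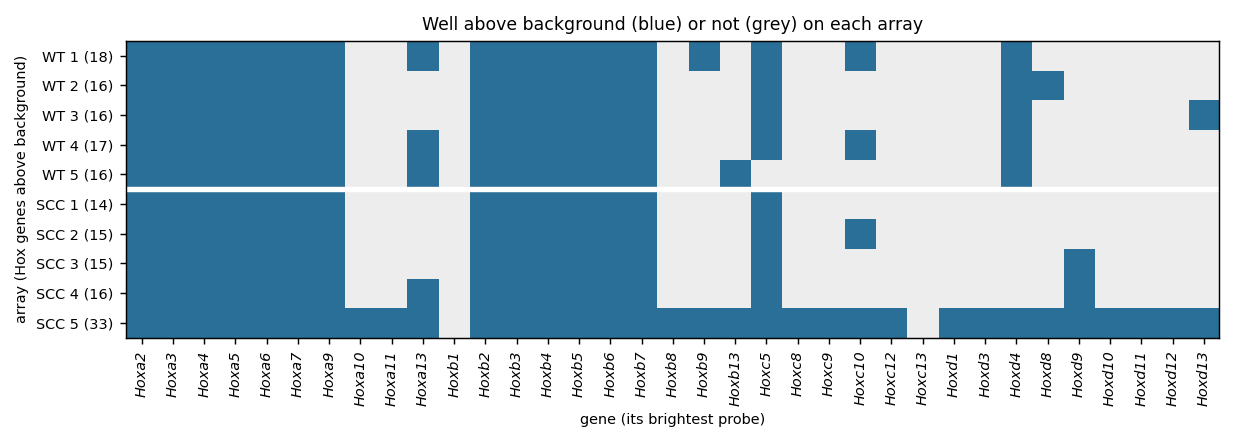
Each of the 35 Hox genes (columns) on each of the 10 arrays (rows), blue where its brightest probe was well above background and grey where not, with the number of genes above background in parentheses. The block of HoxA and HoxB genes is filled on every array, and SCC replicate 5 is filled for 33 genes.

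Of the 35 members, 15 could be tested. Of these, 11 were lower in SCC, 1 was higher and 3 were not called, where 13.0% of all tested probes were lower and 9.92% higher. All 11 lower genes belong to the 13 that were above background on every array, so none entered the test through 1 group alone. The median difference over the tested members was -1.83, against -0.09 over all tested probes. For 11 of the 15, the values of both groups did not overlap, as for 37.4% of all tested probes. By cluster, 5 of 7 tested HoxA genes and 6 of 6 tested HoxB genes were lower, 1 of 1 tested HoxC gene was higher, and the 1 tested HoxD gene was not called.

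**Figure D2:**
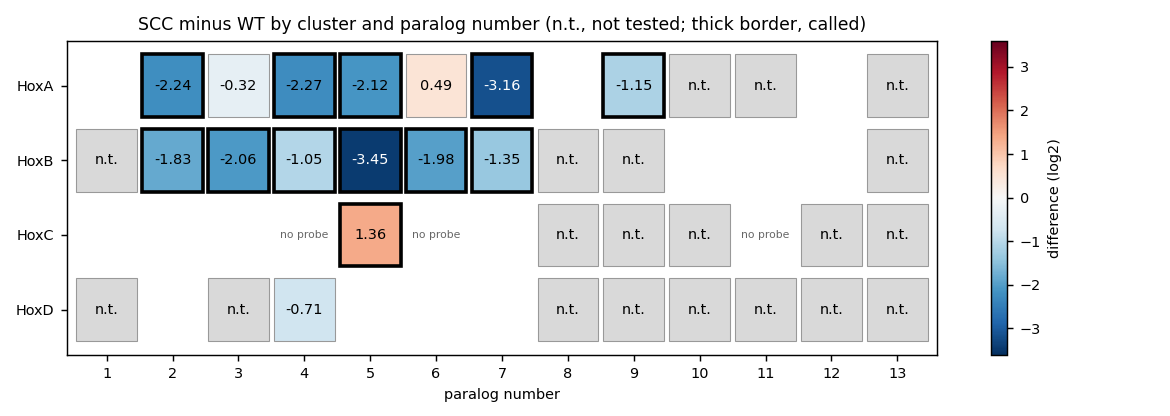
SCC minus WT difference in log2 intensity for each Hox gene, by cluster (rows) and paralog number (columns). Blue cells were lower and red cells higher in SCC, a thick border marks a call, n.t. marks a gene with a probe that was not tested, other cells hold no value, and the 2 darkest cells are Hoxa7 at -3.16 and Hoxb5 at -3.45.

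Without SCC replicates 2 and 5, 11 members were again lower, and they were the same 11 genes, with a median difference of -1.95. In that fit 14% of all tested probes were lower, with a median of -0.06. SCC replicate 2 had the highest SCC value for 10 of the 11 lower genes, and SCC replicate 5 had the lowest for 7. With slide as a fixed block, the comparison rests on slide 2 alone and 6 of the 11 were called, Hoxa5, Hoxa7, Hoxa9, Hoxb2, Hoxb5 and Hoxb6, while Hoxa2, Hoxa4, Hoxb3, Hoxb4 and Hoxb7 were not, with a median difference over the tested members of -1.46. In the order given, those 5 differed by -1.74, -1.91, -1.58, -1.46 and -0.67 in the block fit, at adjusted p between 0.0754 and 0.174. In that fit 5.22% of all tested probes were lower. Within that slide, WT replicate 5 was above all 3 SCC arrays for each of the 11. For the 10 whose groups do not overlap this had to be so, and it adds nothing to them. Slide and group cannot otherwise be told apart, since slide 1 holds WT arrays alone and slide 3 SCC arrays alone.

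Of the low-numbered HoxA genes, Hoxa2 fell and Hoxa3 depended on the probe. Hoxa2, which gives the second pharyngeal arch its identity, read 8.52, 8.40, 8.52, 8.60 and 8.26 on WT replicates 1 to 5 and 6.33, 7.37, 5.85, 6.23 and 5.31 on SCC replicates 1 to 5. No SCC array reached a WT array, and SCC replicate 2 lay nearest to WT. Hoxa2 fell by 2.24 on the log2 scale (standard error 0.32), or 4.73-fold, with limma's adjusted p = 0.000352. Under the other settings of processing described below, its smallest difference was -1.37.

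Hoxa3, needed for the thymus and parathyroid, gave 2 answers from its 2 probes. The brighter probe read 8.51, 8.09, 8.42, 8.07 and 8.65 in WT and 8.07, 8.06, 8.15, 8.06 and 7.83 in SCC, a difference of -0.32 with adjusted p = 0.0738. WT replicates 2 and 4 lay among the SCC values on this probe. The dimmer probe read 7.98, 7.65, 7.92, 8.05 and 7.95 in WT and 6.003, 7.08, 5.86, 5.49 and 5.28 in SCC, with no overlap. It fell by 1.97 (standard error 0.30), with adjusted p = 0.000493. Both probes carry the same transcript accession, and when a gene was read as the median of its probes, Hoxa3 was called as well (difference -1.14, adjusted p = 0.00066).

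The middle of HoxA held the member with the largest fall in this cluster, Hoxa7. Hoxa4 read 8.66, 8.79, 8.51, 8.70 and 8.70 in WT and 6.51, 7.44, 6.43, 6.92 and 4.71 in SCC, with the lowest value on SCC replicate 5. It fell by 2.27 (standard error 0.42), or 4.82-fold, with adjusted p = 0.00171, and the smallest difference under other settings was -1.31. Its second, dimmer probe gave a difference of -0.35 with adjusted p = 0.647, and on that probe SCC replicate 5 read 7.84, above every WT array, while the other SCC arrays read 4.13 to 5.15, below every WT array at 5.58 to 5.86. Hoxa5, which is required for normal trachea and lung formation, read 10.89, 10.82, 10.85, 10.96 and 10.80 in WT and 8.64, 9.74, 8.52, 8.44 and 8.38 in SCC. WT arrays were within 0.16 of each other, and SCC replicate 2 stood above the other SCC arrays. Hoxa5 fell by 2.12 (standard error 0.24), or 4.35-fold, with adjusted p = 8.9e-05.

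Hoxa6 did not join its neighbours. It read 6.16, 6.02, 6.27, 6.48 and 6.37 in WT and 6.95, 6.70, 5.74, 6.11 and 8.26 in SCC. SCC replicates 1, 2 and 5 lay above every WT array and SCC replicate 3 below every one. The difference of 0.49 (standard error 0.40) had an adjusted p = 0.333, and without SCC replicate 5 it was 0.11. Hoxa7, on the other side of it, read 12.03, 11.86, 12.04, 12.58 and 12.35 in WT and 9.21, 9.31, 8.57, 9.12 and 8.84 in SCC. The lowest WT array was 2.55 above the highest SCC array. Hoxa7 fell by 3.16 (standard error 0.18), or 8.95-fold, with adjusted p = 2.68e-06, the smallest among the members.

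Hoxa9, best known from blood progenitors and leukaemia, was the 1 gene of number 9 or above that could be tested. It read 6.12, 6.04, 5.88, 6.20 and 6.12 in WT and 4.38, 5.29, 4.66, 4.997 and 5.27 in SCC, and the groups did not overlap. It fell by 1.15 (standard error 0.18), or 2.22-fold, with adjusted p = 0.000614. The call was lost when each array was scaled by its 75th percentile instead of by quantiles (difference -0.85, adjusted p = 0.164), and under normexp background correction (difference -0.40, adjusted p = 0.00067). Of 6 haematopoietic progenitor markers, 4 were tested and 1 was lower, where 13.0% of all tested probes were lower, and the list's mean level was 7.11 to 7.54 on WT arrays and 6.64 to 7.57 on SCC arrays. Their part in the Hoxa9 difference was not tested.

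Every HoxB gene from number 2 to number 7 fell. Hoxb2, which acts in hindbrain motor neurons, read 11.29, 11.18, 11.01, 11.35 and 11.09 in WT and 9.36, 9.93, 8.96, 9.29 and 9.24 in SCC. It fell by 1.83 (standard error 0.17), or 3.55-fold, with adjusted p = 2.94e-05. No SCC array reached a WT array, and SCC replicate 2 was again the highest of its group. Hoxb3 read 9.81, 9.64, 9.70, 9.73 and 9.59 in WT and 7.92, 8.61, 7.48, 7.82 and 6.33 in SCC. It fell by 2.06 (standard error 0.35), or 4.17-fold, with adjusted p = 0.00095. Its second probe gave a like difference of -2.01 with adjusted p = 3.19e-05, so both probes of Hoxb3 were called.

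Hoxb4, which expands blood stem cells when it is forced on, was the least secure of the lower genes. It read 7.54, 7.76, 7.76, 7.65 and 7.74 in WT and 6.30, 6.55, 5.99, 6.14 and 8.21 in SCC. The highest of SCC replicates 1 to 4 lay 0.99 below the lowest WT array, and SCC replicate 5 lay above every WT array. With this array Hoxb4 fell by 1.05 (standard error 0.37), or 2.08-fold, with adjusted p = 0.0396. Without it the fall was 1.45 with adjusted p = 3.06e-05. Leaving out any of the other 9 arrays, each in turn, took the call away.

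Hoxb5, a lung mesenchyme factor, showed the largest difference of all members. It read 11.22, 11.21, 11.18, 11.43 and 11.21 in WT and 8.12, 9.11, 7.08, 7.68 and 7.003 in SCC. The WT arrays were within 0.25 of each other, the SCC arrays spread over 2.10, and SCC replicate 2 was nearest to WT. Hoxb5 fell by 3.45 (standard error 0.36), or 10.95-fold, with adjusted p = 5.66e-05, and the smallest difference under other settings was -2.81. Hoxb6 read 9.72, 9.56, 9.57, 9.57 and 9.23 in WT and 7.68, 8.31, 7.51, 7.45 and 6.81 in SCC. It fell by 1.98 (standard error 0.24), or 3.94-fold, with adjusted p = 0.000132. No SCC array reached a WT array for either gene. Hoxb7 read 9.54, 9.52, 9.63, 9.35 and 8.93 in WT and 8.08, 8.39, 8.33, 7.94 and 7.48 in SCC, with WT replicate 5 the lowest of its group. It fell by 1.35 (standard error 0.20), or 2.55-fold, with adjusted p = 0.000407, and with slide as a block by 0.67 with adjusted p = 0.0962.

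Hoxc5 was the 1 member higher in SCC. It read 4.02, 4.53, 4.24, 4.66 and 4.31 in WT and 5.53, 5.22, 5.99, 5.78 and 6.04 in SCC, without overlap, and was well above background on 4 WT and all 5 SCC arrays. It rose by 1.36 (standard error 0.18), or 2.57-fold, with adjusted p = 0.000254. WT values lay close to the lowest signals flagged as above background, 3.81 to 4.32 on WT arrays, and under normexp the difference was 0.44, below 2-fold and not called. Its paralogs of number 5, Hoxa5 and Hoxb5, were both lower.

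Hoxd4 was the 1 HoxD gene tested. It read 4.87, 4.85, 4.51, 4.74 and 4.53 in WT, where all 5 arrays were above background, and 3.75, 3.78, 3.73, 4.16 and 4.54 in SCC, where SCC replicate 5 alone was. The probe entered the test through its WT values, and with 4 of 5 SCC values not well above background the size of the difference was not measured. The fitted difference of -0.71 had limma's adjusted p = 0.00735 and was not called.

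**Figure D3:**
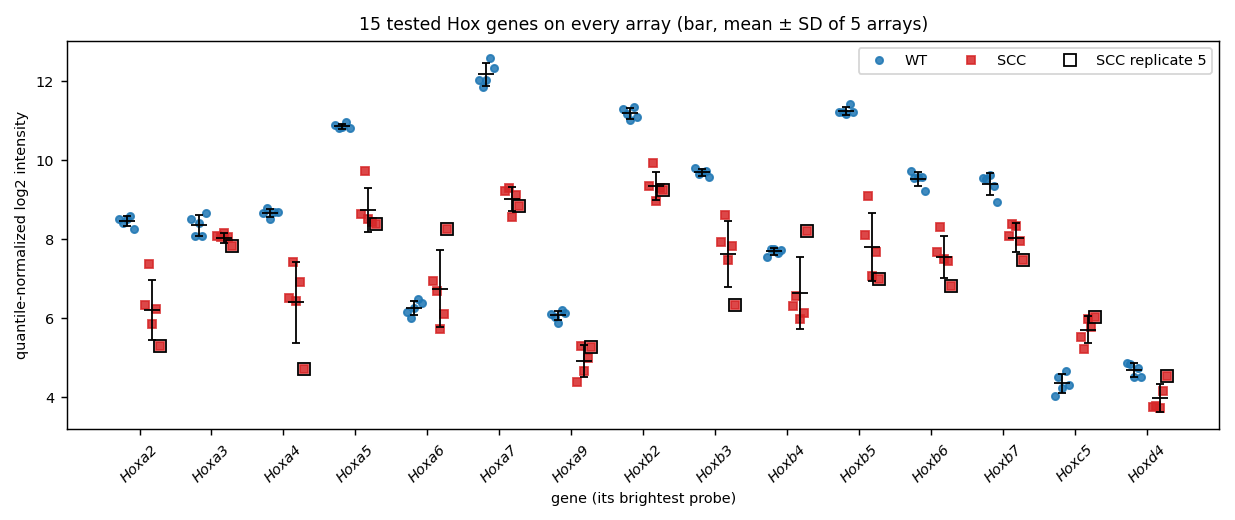
Quantile-normalized log2 intensity (y axis) of the 15 tested Hox genes (x axis) on each WT (blue circles) and SCC (red squares) array, with black bars for the mean and SD of 5 arrays and an open square around SCC replicate 5. The groups are apart for 10 of the 11 lower genes, and SCC replicate 5 lies above the WT arrays for Hoxb4 and Hoxa6.

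For 14 of the 15 tested members the SD was larger in SCC than in WT. The same held for 85.1% of all tested probes. Among the members the SD ran from 0.06 to 0.29 among the 5 WT arrays and from 0.12 to 1.03 among the 5 SCC arrays. Hoxa3 on its brighter probe was the exception. Over SCC replicates 1, 3 and 4 alone the SD was larger than in WT for 11 of the 15, with Hoxa3, Hoxb6, Hoxb7 and Hoxc5 the exceptions, and for 51.1% of all tested probes.

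The other 20 members with a probe were not tested: Hoxa10, Hoxa11, Hoxa13, Hoxb1, Hoxb8, Hoxb9, Hoxb13, Hoxc8, Hoxc9, Hoxc10, Hoxc12, Hoxc13, Hoxd1, Hoxd3, Hoxd8, Hoxd9, Hoxd10, Hoxd11, Hoxd12 and Hoxd13. Each was above background on at most 3 arrays of either group. On the 9 arrays other than SCC replicate 5 they read 1.62 to 5.61, and on SCC replicate 5 up to 9.07, the value of Hoxc10. Of the 20, 18 were above background on SCC replicate 5, where 90.2% of all probes were. Paralogs of number 9 and above made up 14 of the 20, so most of the tail-ward genes gave no measure of a difference.

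Hoxd9, a limb and trunk patterning gene, gave opposite flags on its 2 probes, and neither was tested. The brighter was above background on 3 SCC arrays and no WT array. It read 4.32, 4.20, 4.01, 4.27 and 3.78 in WT and 4.70, 3.45, 5.24, 5.28 and 4.05 in SCC, with overlap. SCC replicate 2 lay below every WT array, and SCC replicate 5, where signals down to 2.14 were flagged as above background, lay below WT replicates 1, 2 and 4. The dimmer was above background on 3 WT arrays and, in SCC, on replicate 5 alone, so 4 of its 5 SCC values were not well above background and no difference is given. Hoxa13 was above background on 3 WT and 2 SCC arrays, and read 5.60, 2.22, 3.54, 5.60 and 5.18 in WT and 2.76, 3.92, 4.06, 5.02 and 7.88 in SCC, with overlap.

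HoxA and HoxB genes of the same paralog number fell together at numbers 2, 4, 5 and 7. At number 4 Hoxd4 was not called, and at number 5 Hoxc5 rose while Hoxa5 and Hoxb5 fell. At numbers 3 and 6, Hoxb3 and Hoxb6 fell while the brighter Hoxa3 probe and Hoxa6 were not called. By position, 3 of 4 tested members of number 1 to 3 were lower, and of 10 tested of number 4 to 8, 7 were lower and 1 was higher, against 13.0% lower and 9.92% higher among all tested probes.

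Of the genes beside the clusters, 1 was called. The 3 genes on each side of each cluster, taken by position, made a list of 24 genes, of which 22 were tested. None was higher and 1 was lower, against 9.92% and 13.0% of all tested probes, and their median difference was 0.19, against -1.83 over the tested Hox genes. By the adjusted p alone 9 of the 22 differed, against 49.0% of all tested probes. Snx10 on the HoxA side and Calcoco1 on the HoxC side, both named after their values were seen, differed by 0.82 and -0.94 with adjusted p of 6.39e-05 and 0.000254, below 2-fold. The lower one was Skap1, a T cell adaptor beside Hoxb1, which read 10.49, 10.28, 10.07, 10.68 and 10.52 in WT and 8.87, 8.58, 8.38, 8.30 and 9.04 in SCC. It fell by 1.77 (standard error 0.17), or 3.42-fold, with adjusted p = 4.08e-05. Of 5 T cell markers 3 were lower too, with a mean level of 8.09 to 8.83 on WT arrays and 7.07 to 7.56 on SCC arrays, and their part in the Skap1 difference was not tested. On the HoxA side, the nearest gene on one side, Skap2, differed by 0.23 with adjusted p = 0.0908, and Evx1 on the other, next to Hoxa13, was not tested. The homeobox gene Evx2, next to Hoxd13, differed by -0.33 with adjusted p = 0.293.

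**Figure D4:**
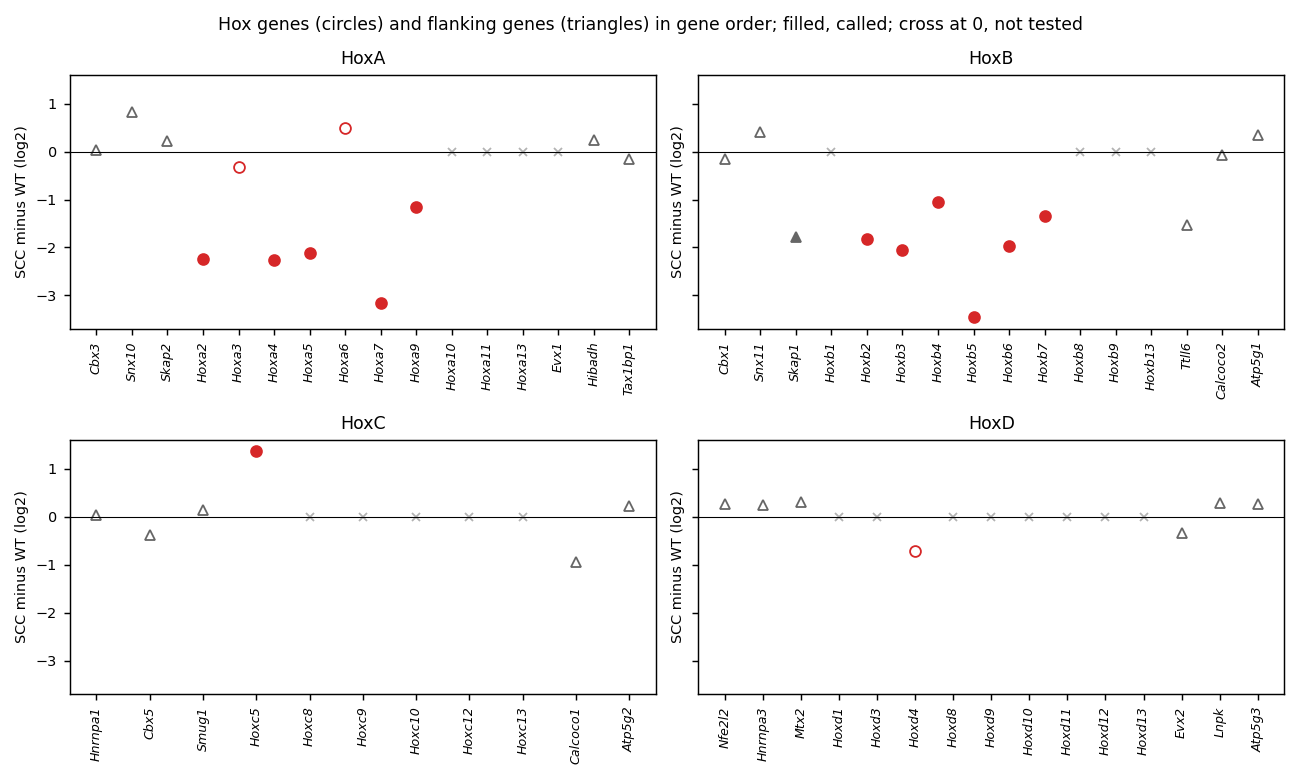
SCC minus WT difference in log2 intensity (y axis) of Hox genes (red circles) and of up to 3 genes on each side (grey triangles) in gene order (x axis), one panel per cluster, filled where called and with a cross at 0 where not tested. The tested flanking genes lie between -0.94 and 0.82, apart from Skap1 at -1.77, which was called, and Ttll6 at -1.54, which was not.

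A non-coding RNA of the HoxD cluster named as opposite strand to Hoxd3, Hoxd3os1, was singled out after its values were seen. It was above background on no WT array and on 4 SCC arrays, and read 2.38, 3.26, 2.21, 2.91 and 3.91 in WT and 5.05, 3.35, 6.03, 5.36 and 5.46 in SCC, with overlap at SCC replicate 2. It entered the test through its SCC values, and was at least 2.02-fold higher in SCC, with limma's adjusted p = 0.00628. Without SCC replicates 2 and 5 it was at least 2.72-fold higher, with limma's adjusted p = 0.000559. That fit dropped SCC replicate 2, where the probe was not above background, and its filter asked for only the 3 SCC arrays left. With any 1 of the 4 SCC arrays above background left out, SCC replicate 5 among them, it no longer passed the filter and was not tested. Hoxd3 itself was not tested. Whether its probe tells it apart from transcripts of Hoxd3 was not checked.

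Among the TALE homeodomain partners, which bind DNA together with Hox proteins, all 9 genes were tested, 0 were higher and 3 were lower, against 9.92% and 13.0% of all tested probes. By the adjusted p alone 5 of the 9 differed, against 49.0% of all tested probes. Pknox2 read 10.37, 9.92, 9.96, 9.96 and 10.10 in WT and 7.60, 8.32, 7.03, 7.12 and 6.23 in SCC, and fell by 2.80 (standard error 0.33), or 6.98-fold, with adjusted p = 0.000111. Meis1 read 10.17, 10.36, 10.03, 10.46 and 10.29 in WT and 8.31, 8.82, 8.58, 8.28 and 8.60 in SCC, and fell by 1.74 (standard error 0.13), with adjusted p = 1.03e-05. Meis2 read 12.09, 11.94, 12.03, 12.17 and 12.22 in WT and 10.41, 10.65, 10.52, 10.25 and 10.52 in SCC, and fell by 1.62 (standard error 0.10), with adjusted p = 3.88e-06. Pknox2, Meis1 and Meis2 each had 2 probes, of which the brighter was read and the other was not looked at. For none of the 3, named because they were called, did the groups overlap, as for 37.4% of all tested probes. Pbx2 and Pbx3, named after their values were seen, differed by -0.31 and -0.52, at adjusted p of 0.0118 and 0.00261, both below 2-fold.

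Of the Polycomb genes, all 22 were tested, with 1 higher and 1 lower, against 9.92% and 13.0% of all tested probes, and by the adjusted p alone 11 differed, against 49.0%. Ezh2, the enzyme that places the repressive H3K27 methyl mark, read 8.99, 8.85, 8.73, 9.17 and 8.96 in WT and 10.23, 9.71, 10.43, 10.11 and 10.02 in SCC. It rose by 1.16 (standard error 0.14), or 2.23-fold, with adjusted p = 0.000147. Cbx7, a Polycomb subunit that binds this mark, read 12.08, 11.85, 11.83, 12.01 and 12.27 in WT and 10.19, 10.89, 9.14, 9.81 and 9.70 in SCC. It fell by 2.06 (standard error 0.28), or 4.17-fold, with adjusted p = 0.000274. Neither of these called genes overlapped between groups, as for 37.4% of all tested probes. Bmi1, named after its value was seen, differed by -0.98 with adjusted p = 0.000198, just below 2-fold. Among the trithorax and H3K27 demethylase genes, 12 of 13 had a probe, all 12 were tested and 0 were called. In limma's fit 4 of them had an adjusted p below 0.05, the largest difference being -0.88 for Psip1, named after its value was seen. Of 8 caudal, ParaHox and Evx genes, 2 were tested and 0 called.

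In the retinoic acid pathway, of the 16 genes covered, all 16 were tested, 4 were higher and 3 lower, against 9.92% and 13.0% of all tested probes. By the adjusted p alone 9 differed, against 49.0% of all tested probes. Of the enzymes that make retinoic acid from retinal, Aldh1a3 read 6.51, 7.45, 7.12, 6.54 and 6.91 in WT and 13.94, 10.37, 14.67, 14.85 and 14.69 in SCC. It rose by 6.80 (standard error 0.79), or 111-fold, with adjusted p = 0.000106. SCC replicate 2 was nearest to WT, and without it the rise was 7.63, or 198-fold. Its relatives Aldh1a1 and Aldh1a2 went the other way. Aldh1a2, the main form of embryonic mesoderm, read 11.93, 11.57, 11.40, 11.98 and 11.52 in WT and 9.37, 8.65, 9.52, 9.26 and 9.64 in SCC, and fell by 2.39 (standard error 0.20), with adjusted p = 1.79e-05. Aldh1a1 read 17.13, 17.09, 17.13, 16.65 and 17.15 in WT and 14.35, 16.30, 13.13, 15.23 and 14.25 in SCC, and fell by 2.38 (standard error 0.49), with adjusted p = 0.0031. No WT value was reached by an SCC array in either gene, and 37.4% of all tested probes did not overlap between groups.

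Crabp2, which carries retinoic acid to the nucleus, was above background on 4 SCC arrays and no WT array. On SCC replicate 2 it read 2.26, at the WT level of 2.19 to 2.28. It entered the test through its SCC values, and was at least 2.02-fold higher in SCC, with limma's adjusted p = 0.00755, and at least 3.27-fold higher without SCC replicate 2. With any 1 of the 4 SCC arrays above background left out, SCC replicate 5 among them, it was not tested. Rdh10, which makes retinal from retinol, read 9.57, 9.36, 9.49, 9.28 and 9.64 in WT and 11.88, 11.51, 12.01, 12.16 and 11.84 in SCC, without overlap. It rose by 2.41 (standard error 0.13), or 5.32-fold, with adjusted p = 2.13e-06. Rdh10 had 2 probes, of which the brighter was read and the other was not looked at. The nuclear receptor Rxrg read 7.79, 9.32, 8.83, 7.72 and 7.70 in WT and 6.36, 6.36, 5.19, 5.85 and 5.78 in SCC and fell by 2.37 (standard error 0.37), with adjusted p = 0.000609. Stra6, through which cells take up retinol, was the remaining higher gene.

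**Figure D5:**
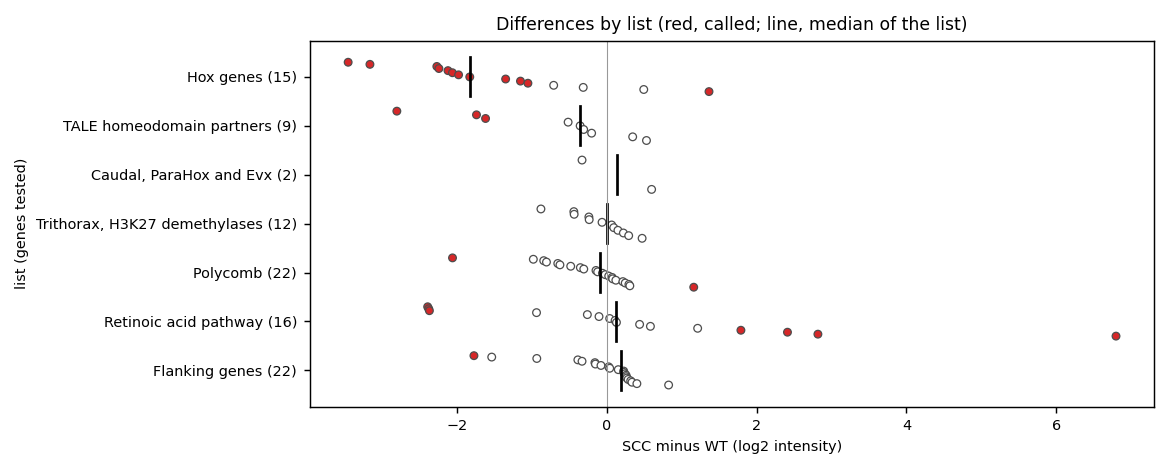
SCC minus WT difference in log2 intensity (x axis) of each tested gene in the Hox set and in 6 related lists (rows, with the number tested), red where called and with a black line at the median of the list. The Hox genes lie mostly left of 0, with a median of -1.83, and the flanking genes on both sides of it, with a median of 0.19.

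Markers of several non-epithelial lung cell types were lower in the same tumours, where 13.0% of all tested probes were lower and 9.92% higher. Of 4 mesothelial markers 4 were lower, and their mean level was 10.42 to 10.96 on WT arrays and 4.61 to 6.73 on SCC arrays. Of these, Wt1 was above background on 1 SCC array and Upk3b on 3, so both entered the test through their WT values. The SCC levels of this list thus rest in part on values not well above background. Of 7 endothelial markers 6 were lower, with a mean level of 13.50 to 13.72 in WT and 11.20 to 12.24 in SCC. Of 7 fibroblast markers 4 were lower, Tcf21, Pdgfra, Dcn and Lum, at a mean level of the list of 13.43 to 13.62 in WT and 11.99 to 13.14 in SCC. The collagen genes Col1a1, Col1a2 and Col3a1 were not called, at differences of 0.66, -0.25 and 0.53. On SCC replicate 2, the highest array for most fallen Hox genes, the fibroblast and endothelial levels were also the highest of the SCC arrays, 13.14 and 12.24. So were the alveolar type 2, club, B cell and cardiac muscle levels, 15.24, 17.72, 8.35 and 10.37. The levels of the other lists were not, among them smooth muscle (11.68) and T cell (7.07, the lowest of the SCC arrays). The mesothelial level was 4.61 on this array, 4.63 on SCC replicate 5 and 5.90 to 6.73 on the other SCC arrays. The part of these cell types in the Hox differences was not tested.

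The epithelial, immune and muscle lists are read against the same shares of all tested probes, 13.0% lower and 9.92% higher. Of 5 alveolar type 1 markers tested 4 were lower, and of 3 club cell markers 2 were lower. Of 6 alveolar type 2 markers 0 were called in limma's fit, with 4 at an adjusted p below 0.05, all with lower means in SCC. By the adjusted p alone 49.0% of all tested probes differed. Of 4 B cell markers 4 were lower, while 3 of 5 neutrophil markers and 1 of 5 macrophage markers were higher. Of 5 smooth muscle markers 2 were lower, and of 5 cardiac muscle markers 4 were lower, the latter with a mean level of 10.36 to 14.08 on WT arrays and 8.67 to 10.37 on SCC arrays. Of 4 ciliated cell markers 0 were called in limma's fit, with 1 at an adjusted p below 0.05, against 49.0% of all tested probes. Of 5 skeletal muscle markers 1 was lower, 3 of 3 tested adipocyte markers were lower, and of 3 tested neural markers 2 were lower and 1 was higher. These lists were not tested against the Hox values.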

How the data were processed

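RNA from 5 WT lungs and 5 SCCs was measured on 1-colour Agilent mouse arrays with Cy3, 1 array for each sample, with groups taken from the sample titles. The authors scanned and read the arrays with Agilent Feature Extraction 12, and the deposited scanner files give each spot's processed intensity on a linear scale, its median raw intensity and background, and flags. The authors also deposited a matrix of quantile-normalized log2 values (r of at least 0.99995 with the values used here), which chose each gene's brightest probe and served as an alternative. The depth of an array cannot be counted, and the number of arrays limits the precision.

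Spots marked as controls or outliers were dropped, log2 processed intensity was averaged over the spots of a probe, and 41174 probes were quantile-normalized. Symbols came from the RefSeq accession of each probe, which named 28215 probes (68.5%). Of all probes, 30374 were well above background on at least 4 of 5 arrays of a group and were tested with limma 3.58.1 (R 4.3.3), without covariates, with Benjamini-Hochberg adjustment, at an adjusted p below 0.05 and at least 2-fold. The authors' methods name a one-way analysis of variance, which for these groups is a t-test and was run as an alternative. limma was tested on simulated data. The array design is annotated on mm9, so no coordinates of probes are given. Same-numbered WT and SCC arrays did not deviate together (correlations of -0.10 to 0.01). The labels do not say whether the numbers pair samples, and these correlations cannot exclude it.

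The members and all lists were chosen with earlier results of these data known. 1 Hox gene and 1 gene of another list are not reported here. Each remaining Hox gene is accounted for, with values on every array for called ones. From each partner, regulator and flanking list, called genes were named, at most the 3 with the largest difference in each direction. Marker lists are given as summaries. Genes of all these lists were read from their brightest probe alone. Alternatives were another scaling, background correction, filter, probe choice, block for slide or replicate number, array weights, threshold and t-test, and each array left out in turn. The files hold no mean raw intensity, so normexp used spot medians.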

Additional observations from a re-analysis of the deposited data

Results flagged for a closer look

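In each group of 5 arrays, the array farthest from its nearest neighbour was measured as a share of the group's range, and a gap above 0.71 was noted. Of 58 groups looked at, over the tested Hox genes, the named genes of the other lists and the count of Hox genes above background, 6 passed, and chance gives about 1 in 20. The count of Hox genes above background on SCC replicate 5, 33 against 14 to 16 on the other SCC arrays, had a gap of 0.895. Of all probes, 90.2% were above background on that array, against 71.0% to 74.4% on the other arrays. Hoxb4 on SCC replicate 5 (8.21, next 6.55) had a gap of 0.746. Hoxa5 on SCC replicate 2 (9.74, next 8.64) had a gap of 0.806, and Aldh1a3 on the same array (10.37, next 13.94) one of 0.796. Among WT arrays, replicate 4 was high for Hoxb5 (11.43, next 11.22; gap 0.827) and low for Aldh1a1 (16.65, next 17.09; gap 0.884).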

How the results depend on the processing

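Of the 11 lower Hox genes, 9 to 11 were also called lower under each setting other than the slide block and slide 2 alone. Under these settings 6.78% (normexp) to 26.6% (adjusted p alone) of all tested probes were lower. The median difference over the tested Hox genes was -1.33 under normexp and -1.35 with the median over a gene's probes, against -1.83. Hoxd4 joined the lower genes with the adjusted p alone and Hoxa3 with the median over a gene's probes. Hoxb4 was lost under the replicate block (10 lower, and the labels give no pairing by number), with no filter on dim probes and in the methods' t-test. Hoxa9 and Hoxb4 were lost under 75th percentile scaling and normexp. Leaving out each array in turn gave 10 to 11 lower and 1 higher in each case, and 12 to 15 genes of the other lists. With slide as a fixed block 6 were lower, where 5.22% of all tested probes were. Within slide 2 alone 0 of all 30374 probes were called, so 0 Hox genes were lower, 0 higher and 0 of the other lists called in limma's fit (at an unadjusted p below 0.05, 10 members lower, 1 higher and 19.2% of all probes), with WT replicate 5 alone on one side and assumed to vary like the SCC arrays. Both that fit and the fit without SCC replicates 2 and 5 were chosen after seeing the data. The 1 higher gene, Hoxc5, was not called under normexp (0 higher), and under the strict filter it was not tested (0 higher). With the adjusted p alone, 39 genes of the other lists were called against 13, and 49.0% of all tested probes against 22.9%. No difference of a tested member changed sign. The median over all tested probes was -0.09, and 0.03 under 75th percentile scaling.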
